A study of Homo sapiens with 2 samples.

Results

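The COPII coat and its SAR1 GTPases carry newly made proteins and lipids out of the endoplasmic reticulum (ER), and the 10 genes that encode them were examined in HCT116 colon carcinoma cells exposed to LXR623. The genes were SAR1A, SAR1B, SEC23A, SEC23B, SEC24A, SEC24B, SEC24C, SEC24D, SEC13 and SEC31A, and each was found by its symbol in the annotation of the array platform. They make up 10 of the 22458 genes that carry a symbol there. The group was chosen by a measured value, since SEC24D was among the genes with the largest positive difference between the arrays. That value and every other difference between these arrays come from the comparison that chose the group, so they are given as a description.

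HCT116 is an established human colon carcinoma cell line. One array was hybridized with total RNA of cells treated for 24 h with 20 µM LXR623, which activates the liver X receptors, and 1 array with RNA of cells given 0.1% DMSO, the solvent control. Per the labels, both cultures were kept in RPMI, with serum lowered to 1.5% during treatment, whereas the methods of the study name DMEM for HCT116. The treatment text of the DMSO sample is the same as that of the LXR623 sample and also names LXR623, so both arrays were assigned by the labels that name each treatment and by the titles. The methods keep DMSO below the same percentage for the reagents in general and do not give it for the LXR623 culture alone. From the DMSO stock they name, this dose of LXR623 would bring more DMSO than that limit. The cultures may therefore have differed in DMSO as well. The cells carried no stated genetic change. With 1 array per condition there is no replicate, so no test, error or p-value can be given for any difference. Any other way in which both cultures may have differed cannot be told apart from an effect of LXR623.

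In the first step of coat assembly, an exchange factor in the ER membrane loads SAR1 with GTP, and SAR1 then inserts into the membrane. It recruits the inner coat, a pair of SEC23 and SEC24, in which SEC23 stimulates GTP hydrolysis by SAR1 and SEC24 binds the export signals of cargo. Pairs of SEC13 and SEC31 then polymerize over it as the outer cage and bend the membrane into a bud. Human cells carry several SEC24 genes that fall into a pair of subfamilies, SEC24A with SEC24B and SEC24C with SEC24D, and these differ in the cargo signals they bind. The complex of SCAP with the SREBP transcription factors of lipid synthesis is a well-known COPII cargo.

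The deposited values are log2 intensities summarized by RMA, with 1 probe set per gene. A probe set was counted as measured where at least 1 of both arrays gave 4.42 or more, the median over all deposited values, which holds for 12279 of 23786 probe sets and for all 10 COPII genes. The array medians were 4.43 with LXR623 and 4.40 with DMSO. ABCA1, the cholesterol exporter that liver X receptors induce, had a log2 intensity of 5.14 with LXR623 and 3.58 with DMSO, or 2.94-fold more with LXR623. The DMSO value lies below 4.42, so the size of this fold rests on a dim signal. Measured probe sets were split into 20 classes of equal size by mean intensity. In the dimmest class, which holds ABCA1, the central 95% of differences ran from -1.03 to 1.38, and 13 of 613 probe sets differed by at least as much in size as ABCA1 (1.56). Among epithelial markers EPCAM was bright, with 10.21 with LXR623 and 10.15 with DMSO, as was KRT19, with 10.90 with LXR623 and 10.58 with DMSO. CDX2 was dimmer, with 6.01 with LXR623 and 6.07 with DMSO. Of 8 colon epithelial markers 6 were measured, while KRT20 and VIL1 were too dim. KRT8 was the marker at least 1.5-fold higher with LXR623, with 7.14 against 5.63 with DMSO. Of 5 fibroblast markers COL1A1 alone was measured, with 5.70 with LXR623 and 5.58 with DMSO, and 0 of 3 leukocyte markers on the array and 0 of 3 endothelial markers were.

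SEC24D, a cargo-binding subunit of the inner coat, had a log2 intensity of 9.17 in the LXR623 array and 7.59 in the DMSO array. It was thus higher with LXR623 by a log2 difference of 1.58, or 2.99-fold. Mutations of SEC24D cause a bone fragility disorder in humans, in which export of procollagen is impaired. SEC24D held rank 20 among 11716 measured genes with a symbol, ordered from the largest positive difference. Directly above it stood C2orf78 with 1.63 and IDUA, a lysosomal enzyme, with 1.60, and directly below it KRT17P5 with 1.58 and ORAI3, a calcium channel subunit, with 1.56. The DMSO values of C2orf78 (4.07) and KRT17P5 (2.99) were below 4.42, whereas both values of SEC24D were well above it. In its class by mean intensity SEC24D was the 1 probe set among 614 with a difference this large in size. The central 95% of that class ran from -0.69 to 0.76. As SEC24D was chosen for the size of its difference, its place in the class is a description only.

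**Figure D1:**
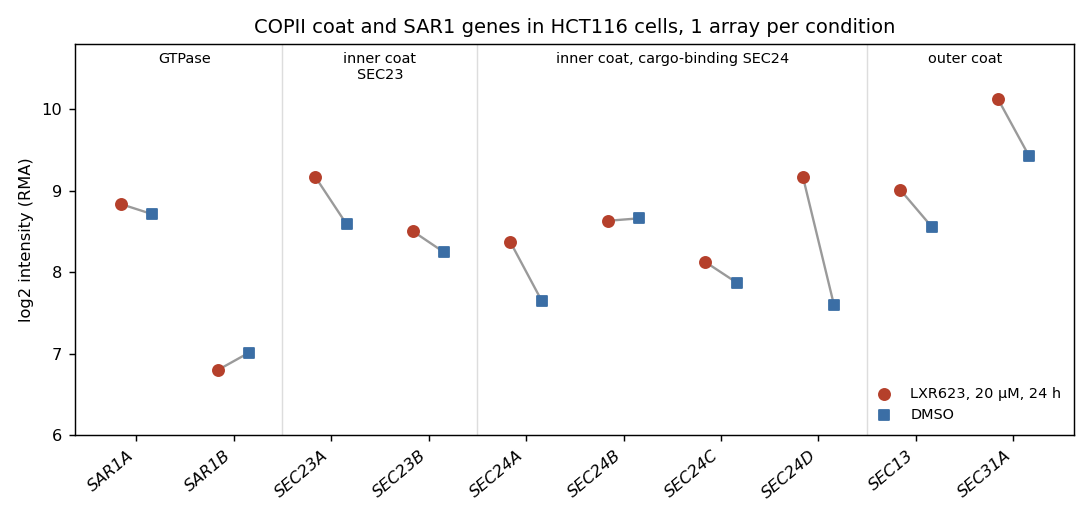
Log2 intensity (RMA) of the 10 COPII coat and SAR1 genes in the LXR623 array (circles, left of each pair) and the DMSO array (squares, right), grouped by their place in the coat, with 1 array per condition and no error bars. SEC24D has the steepest line, 9.17 with LXR623 against 7.59 with DMSO, and SAR1B and SEC24B are the genes whose circle lies below the square.

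Of the 10 COPII genes, 3 were at least 1.5-fold higher in the LXR623 array, SEC24D, SEC24A and SEC31A, where 6.3% of all measured probe sets passed this size in the same direction. None was at least 1.5-fold lower (0 of 10), against 5.78% of all measured probe sets. At least 2-fold higher was 1 gene, SEC24D, against 1.38% of all measured probe sets. As SEC24D chose the group, nothing is read from these shares. The differences of the 10 genes ran from -0.21 to 1.58 with a median of 0.35, and the median over all measured probe sets was -0.02. For the 9 genes other than SEC24D the median was 0.26, and 2 of them were at least 1.5-fold higher. In a culture measured as a whole, more RNA of a gene per cell and more cells that express it cannot be told apart.

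The SEC24 family, which holds the most genes, spread most widely. SEC24D was chosen for the size of its difference, so this spread and the contrasts with SEC24D are a description only. SEC24A, the closest relative of SEC24B, had 8.37 in the LXR623 array and 7.65 in the DMSO array, a log2 difference of 0.72 or 1.64-fold. SEC24B, which in mice is needed for closure of the neural tube, had 8.63 with LXR623 and 8.66 with DMSO, a difference of -0.03. The sign of the SEC24B value turns with the scaling, from -0.03 to 0.00 across the scalings tried, so no direction is given for it. SEC24C, the closest relative of SEC24D, had 8.12 with LXR623 and 7.87 with DMSO, a difference of 0.25. Each subfamily therefore held 1 gene past 1.5-fold and 1 within it. The difference of SEC24D exceeded that of SEC24C by 1.33, that of SEC24A by 0.86 and that of SEC24B by 1.61 on the log2 scale, and the difference of SEC24A exceeded that of SEC24B by 0.75. These contrasts moved by little when the arrays were scaled in other ways, with 1.33 to 1.34 for SEC24D over SEC24C and 0.75 throughout for SEC24A over SEC24B. A contrast between genes on the same arrays cancels any shift common to all genes, so this was largely set in advance. The probe sequences were not used here, so how far the probe sets of related genes share signal was not tested.

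**Figure D2:**
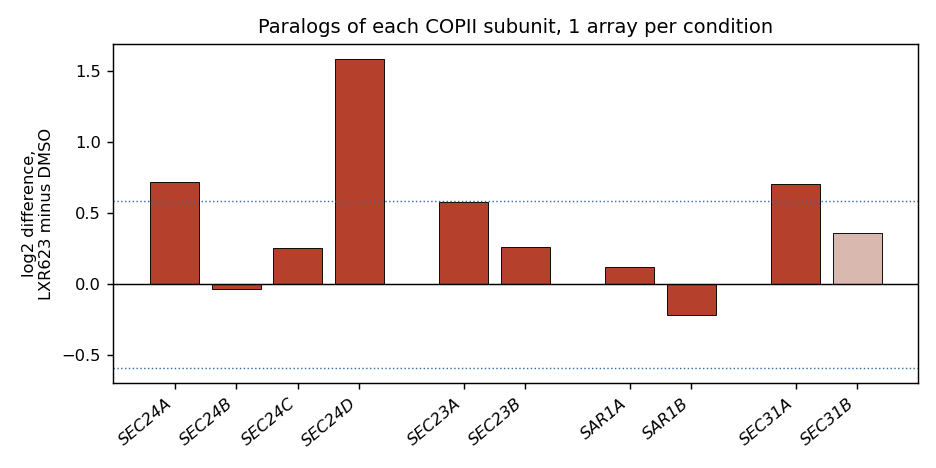
Log2 difference, LXR623 minus DMSO, of each gene within the SEC24, SEC23, SAR1 and SEC31 families, as bars from 0, with 1 array per condition. SEC31B (pale) is a relative of SEC31A outside the 10 genes, and dotted lines mark 1.5-fold in each direction. SEC24D reaches 1.58 while SEC24B lies at -0.03.

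Sequences upstream of the start sites were read for the COPII genes with an entry in the RefSeq promoter table of build GRCh38.p14, which holds for 9 of the 10 genes. The promoter of SEC24D was not analysed here. Each entry spans 250 bases before to 50 bases after a start, and genes may have several. The windows were searched on both strands for the UPRE (TGACGTGG), which factors of the unfolded protein response bind, the CARE (TGATGNAA), which ATF4 binds with its partners, the CRE (TGACGTCA), the ERSE (CCAAT and CCACG with 9 bases between them) and a DR4 site as bound by liver X receptors (AGGTCA repeated after 4 bases). The UPRE and the CRE share their first letters, and no stretch was counted for more than 1 of these motifs in the COPII genes. The UPRE was found in SEC24A, where it starts 179 bases upstream of the start, and in SEC23A, where it starts 4 bases upstream and runs across the start. At least 1 window with the UPRE is held by 0.927% of all 27305 genes in the table. The CARE, the CRE, the ERSE and the DR4 were found in 0 of the 9 genes, and they are held by 4.46%, 2.25%, 0.0916% and 0.0256% of all genes in the table. A match describes the letters of the window and does not show that a factor binds there. SEC24A and SEC23A, which hold the UPRE, differed by 0.72 and 0.58. Among the searched genes that hold none of the motifs, differences ran from -0.21 for SAR1B to 0.70 for SEC31A. A link between a motif and a difference was not tested. The 250 bases upstream of SEC24A and SEC24B are printed 5′ to 3′ on the strand of each gene, with the UPRE match in capitals. This pair was picked because these relatives differed by 0.72 and -0.03. SEC24A lies at chr5:134648535-134648784 on the plus strand and SEC24B at chr4:109433565-109433814 on the plus strand.
SEC24A: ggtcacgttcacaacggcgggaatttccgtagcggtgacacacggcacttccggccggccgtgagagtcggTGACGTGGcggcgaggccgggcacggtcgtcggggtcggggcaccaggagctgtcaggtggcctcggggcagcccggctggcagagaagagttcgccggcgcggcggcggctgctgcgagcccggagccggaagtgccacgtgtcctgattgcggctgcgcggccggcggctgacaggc
SEC24B: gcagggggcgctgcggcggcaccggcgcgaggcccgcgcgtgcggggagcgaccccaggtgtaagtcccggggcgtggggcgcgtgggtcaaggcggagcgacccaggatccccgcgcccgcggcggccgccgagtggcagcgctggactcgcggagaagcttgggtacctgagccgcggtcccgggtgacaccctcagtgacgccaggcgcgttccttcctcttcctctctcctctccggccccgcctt

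The SEC23 genes, whose products pair with SEC24, both had positive differences, of under 1.5-fold. SEC23A had 9.16 with LXR623 and 8.59 with DMSO, a log2 difference of 0.58 or 1.49-fold, just under the 1.5-fold size. It passed that size when the trend with brightness was removed (0.61), when both arrays were given the same distribution (0.61) and when the median difference was subtracted (0.60). Loss of SEC23A causes a craniofacial disorder in humans. SEC23B, mutations of which cause a congenital dyserythropoietic anemia, had 8.50 with LXR623 and 8.24 with DMSO, a difference of 0.26. The gap between both relatives was 0.32.

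Both outer coat genes had positive differences as well. SEC31A, the large rod of the cage, had 10.13 with LXR623 and 9.43 with DMSO, a log2 difference of 0.70 or 1.63-fold. Its class by mean intensity was the brightest of the 20, where the central 95% of differences ran from -0.53 to 0.65, and 17 of its 614 probe sets differed by at least as much in size. SEC31B, its less studied relative and no member of the group, had 6.27 with LXR623 and 5.91 with DMSO, a difference of 0.36. SEC13, the partner of SEC31A, had 9.01 with LXR623 and 8.56 with DMSO, a difference of 0.45 or 1.37-fold.

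The SAR1 GTPases showed small differences. SAR1A had 8.84 with LXR623 and 8.71 with DMSO, a log2 difference of 0.12. SAR1B, which is required for export of chylomicrons from enterocytes and is mutated in chylomicron retention disease, had 6.80 with LXR623 and 7.01 with DMSO, a difference of -0.21. Among all measured probe sets, 29.0% had a difference at or below that of SAR1B and 65.4% at or below that of SAR1A, so both lay in the broad middle of the array. The same held for SEC24B with 48.9%, while SEC13 stood at 89.1%, SEC23A at 93.5%, SEC31A at 96.0%, SEC24A at 96.3% and SEC24D at 99.8%. SEC24C and SEC23B stood at 76.8% and 77.3%.

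**Figure D3:**
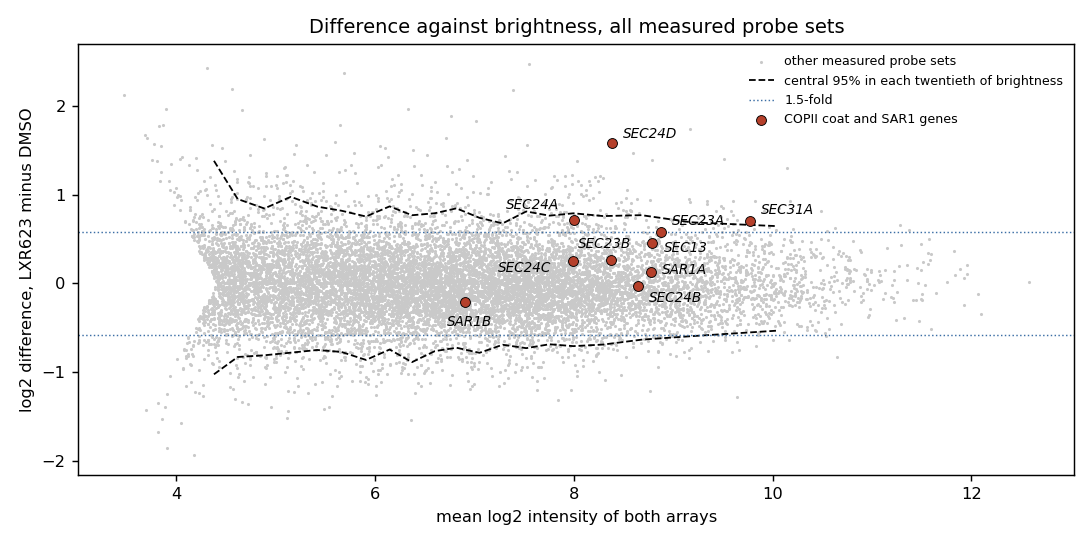
Log2 difference, LXR623 minus DMSO, against the mean log2 intensity of both arrays for the 12279 measured probe sets, with the 10 COPII coat and SAR1 genes in red. Dashed lines enclose the central 95% of differences in each twentieth of brightness and dotted lines mark 1.5-fold; SEC24D (1.58) and SEC31A (0.70) lie above the upper dashed line, and the other 8 genes lie within both.

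SEC13 also works outside the coat, as a subunit of the outer ring of the nuclear pore and of the GATOR2 complex that relays amino acid supply to mTORC1. Most of its partners there had the opposite sign. Of 12 measured partners 10 had a difference below 0, with a median of -0.28. Among all 12279 measured probe sets 6345 had a difference below 0. Against 5.78% of all measured probe sets, 2 partners were at least 1.5-fold lower with LXR623. These were NUP85, with 7.61 with LXR623 and 8.24 with DMSO (-0.63), and NUP107, with 8.10 with LXR623 and 8.70 with DMSO (-0.60), both scaffold proteins of the ring. SEH1L, which sits in both complexes as SEC13 does, differed by -0.33. Of the other GATOR2 subunits, MIOS differed by -0.31, WDR24 by 0.03 and WDR59 by 0.32. NUP107 lost the 1.5-fold size under each of the 3 other scalings.

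Genes that set up COPII assembly at ER exit sites had a median difference of 0.31 over 10 measured genes of 12. At least 1.5-fold higher was 1 and lower were 0, against 6.3% and 5.78% of all measured probe sets. KLHL12, the adaptor through which the CUL3 ligase ubiquitinates SEC31A to form large carriers, had 7.57 with LXR623 and 6.81 with DMSO, a log2 difference of 0.77. Its calcium-binding co-adaptors PDCD6 and PEF1 differed by 0.29 and -0.53. MIA3, which encodes TANGO1 and loads procollagen, differed by 0.42, the exit site scaffolds SEC16A and TFG by 0.33 and 0.35, and SEC23IP, a partner of SEC23 and SEC31, by 0.22. PREB, the exchange factor that loads SAR1, had 8.17 with LXR623 and 8.32 with DMSO, a difference of -0.15. SEC16B and MIA2 were too dim to count as measured.

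Cargo receptors that ride in COPII carriers had a median difference of 0.09. Of 22 measured genes of 25, 1 was at least 1.5-fold higher and 0 lower, against 6.3% and 5.78% of all measured probe sets. TMED3, a member of the p24 family, had 8.04 with LXR623 and 7.32 with DMSO, a log2 difference of 0.71. The others ran from -0.55 for TMED8 to 0.48 for ERGIC3, with LMAN1 and SURF4, receptors for secreted glycoproteins and other soluble cargo, at 0.40 and 0.41. SCAP, the escort of the SREBP factors, had 8.06 with LXR623 and 7.97 with DMSO, a difference of 0.09. TMED6, CNIH2 and CNIH3 were not measured.

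Tethers, SNAREs and their regulators receive COPII carriers at the Golgi. Of 32 measured genes 8 were at least 1.5-fold higher with LXR623 and 0 lower, with a median of 0.21. Over all measured probe sets these shares were 6.3% and 5.78%. GOLGA2, the cis-Golgi matrix protein GM130, had 8.31 with LXR623 and 7.24 with DMSO, a log2 difference of 1.08. STX5, the SNARE of Golgi entry, had 7.55 with LXR623 and 6.76 with DMSO (0.78), and its regulator SCFD1 had 7.92 with LXR623 and 7.28 with DMSO (0.64). YIPF5 and YIF1A, membrane proteins of the early Golgi, each differed by 0.82. Of the TRAPP tethering complex, TRAPPC6A, TRAPPC6B and TRAPPC9 differed by 0.98, 0.86 and 0.74, TRAPPC6A from a dim DMSO value of 4.07, while TRAPPC2L and TRAPPC4 differed by -0.40 and -0.33. The GTPases RAB1A and RAB1B, which act at the same step, differed by 0.20 and -0.01. TRAPPC2 was not measured, and SEC22B and USO1 were not analysed here.

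The COPI coat, which returns proteins and membrane to the ER, is the nearest counterpart of COPII. The list of 20 genes for this coat also holds the ARF GTPases, their regulators and the KDEL receptors. Of its 18 measured genes 6 were at least 1.5-fold higher with LXR623 and 0 lower, against 6.3% and 5.78% of all measured probe sets. The median was 0.43, beside 0.35 for the COPII genes and 0.26 for those other than SEC24D. COPA had 10.29 with LXR623 and 9.36 with DMSO, a log2 difference of 0.93. COPB1, COPG1 and COPB2, other coat subunits, differed by 0.87, 0.82 and 0.63, and COPE and ARCN1 by 0.46 and 0.47. KDELR3, a receptor that retrieves ER proteins, had 8.25 with LXR623 and 7.36 with DMSO (0.88). ARF1, the GTPase that starts assembly of this coat, differed by -0.08 and its relative ARF4 by 0.61. The largest difference of this list was the 0.93 of COPA. SEC24D, at 1.58, was chosen for its size, so nothing is read from its larger value. COPZ2 was not measured and KDELR2 was not analysed here. Whether COPII and COPI genes differ was not tested.

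**Figure D4:**
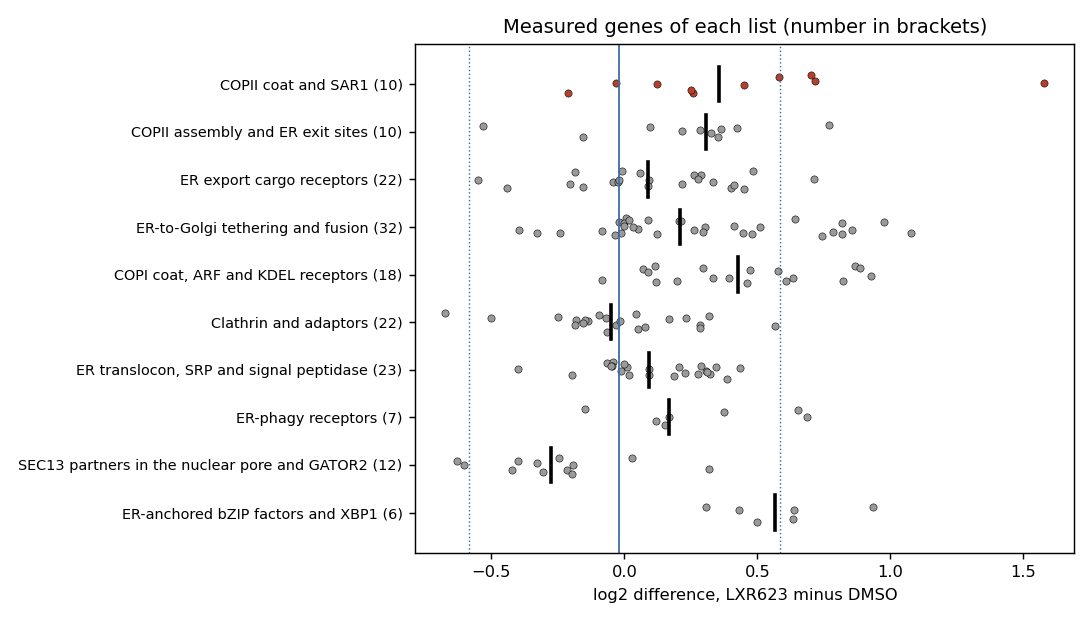
Log2 difference, LXR623 minus DMSO, of each measured gene (points, scattered vertically for visibility) in the COPII coat and SAR1 genes (red) and 9 other lists (grey), with the list median as a black bar and the number of measured genes in brackets. The solid line marks the median of all measured probe sets, -0.02, and dotted lines mark 1.5-fold; list medians run from -0.28 for the partners of SEC13 to 0.57 for the ER-anchored bZIP factors and XBP1.

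Transcription factors that reside in the ER or Golgi membrane and reach the nucleus after cleavage are themselves COPII cargo, and with XBP1 they are known to drive genes of the secretory pathway. All 6 measured genes of this list of 8 had a difference above 0, with a median of 0.57. Among all 12279 measured probe sets 5768 had a difference above 0. Of the 6 genes, 3 were at least 1.5-fold higher with LXR623, against 6.3% of all measured probe sets. XBP1 had 9.24 with LXR623 and 8.30 with DMSO (0.94), ATF6B had 9.07 with LXR623 and 8.43 with DMSO (0.64), and CREB3 had 8.02 with LXR623 and 7.39 with DMSO (0.63). CREB3L2, which in mice raises Sec23a in cartilage, differed by 0.43, and ATF6 by 0.31. CREB3L1 and CREB3L3 were not measured. A part of these factors in the values of the COPII genes was not tested.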

How the data were processed

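Total RNA of HCT116 cells was labeled with biotin and hybridized to Affymetrix arrays, 1 per condition. The authors deposited log2 intensities made with RMA, and affy 1.36.1 with R 2.15.1 stand in the submitters' processing notes. RMA adjusts background in each array and gives the probe intensities of both arrays a common distribution. A shift common to all genes would thus not show, and dim signals are compressed. Genome build and probe sequences are not given in the sources used here. Of 23786 probe sets 22458 carry 1 symbol, with no symbol on several probe sets, and 1328 are unnamed here and enter counts over all probe sets.

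For each probe set the DMSO value was subtracted from the LXR623 value on the log2 scale, and the difference was read by a size of 1.5-fold. The number of arrays limits the precision, and no test was run. The members and the 9 other gene lists, from textbook knowledge, were chosen with earlier results of these data known. Named genes are the members, ABCA1, markers, neighbors of SEC24D in the order of differences, and in each list the measured genes past 1.5-fold, or the 4 with the largest difference where none passed. Other list genes are named for their known role and were chosen after their values were seen. As alternatives the filter was dropped or set at the 25th percentile, the size was set to 2-fold, and the differences were taken after removal of a lowess trend (fraction 0.3), quantile normalization and median centring. Promoter sequences came from RefSeq (GRCh38.p14). Python 3.11.15, numpy 2.4.6, pandas 2.3.3, statsmodels 0.14.6 and matplotlib 3.10.9 were used, and the procedure was tested on simulated data.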

Additional observations from a re-analysis of the deposited data

How the results depend on the processing

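No paired analysis was possible because each condition has a single array, and none could be left out. Without a filter on dim probe sets, 1242 were at least 1.5-fold higher and 1133 lower with LXR623, in place of 773 and 710, since a looser filter admits more. At 2-fold the counts were 169 and 91. Of the COPII genes 3 were at least 1.5-fold and 1 at least 2-fold higher, as SEC24A and SEC31A lie between both sizes. At 2-fold the tethering and fusion genes kept 1 of 8 and the other lists 0. The median of the ER-anchored bZIP factors was 0.46 without a filter and 0.46 with the filter at the 25th percentile, in place of 0.57, as 2 dim genes then enter. SEC23A passed 1.5-fold with 3 scalings, and with each of them 1 in place of 2 partners of SEC13 was lower and 1 in place of 0 clathrin adaptors higher. With each of these scalings 7 in place of 6 genes of the COPI list were higher. With no filter or the one at the 25th percentile the clathrin list likewise had 1 higher. The other members kept their side of 1.5-fold under all scalings, and SEC24D ran from 1.58 to 1.61. All 27 values of the paralog contrasts and 48 of 50 list medians moved by less than 0.1 on the log2 scale. For the contrasts this was largely set in advance, since a shift common to all genes cancels in them. The alignment of paralog proteins was not run.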

Other observations

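Lists for other steps of membrane traffic were read in the same way, and whether they differ from the coat genes was not tested. Over all measured probe sets 6.3% were at least 1.5-fold higher and 5.78% lower. Of 23 measured genes of the ER translocon, the signal recognition particle and signal peptidase, which bring proteins into the ER ahead of COPII, 0 were at least 1.5-fold higher or lower with LXR623, and their differences ran from -0.40 for TRAM2 to 0.44 for SEC62, with a median of 0.09. SRPRB, a subunit of the receptor for the signal recognition particle, differed by 0.39 and SRP9, a subunit of the particle, by 0.34. Clathrin and its adaptors, which coat carriers at the trans-Golgi and the plasma membrane, had a median of -0.05 over 22 measured genes, with 0 at least 1.5-fold higher and 1 lower. That gene was CLTB, a clathrin light chain, with 6.55 with LXR623 and 7.22 with DMSO, a log2 difference of -0.67. Among 7 measured receptors of ER-phagy, the autophagy of ER membrane, 2 were at least 1.5-fold higher and 0 lower, with a median of 0.17. RETREG3 had 7.70 with LXR623 and 7.02 with DMSO (0.68), and CALCOCO1 had 7.27 with LXR623 and 6.62 with DMSO (0.65). CCPG1, another receptor, was not measured.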
